A study of Mus musculus with 10 samples.

Results

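The clustered protocadherin genes Pcdha, Pcdhb and Pcdhg lie one after the other on mouse chromosome 18, and their cover by the histone mark H3K27me3 was measured in macrophages. Members were all protein-coding genes on chromosome 18 of the mm10 build whose symbol starts with Pcdha, Pcdhb or Pcdhg. This rule gave 57 of the 21887 protein-coding genes examined, namely 14 Pcdha, 22 Pcdhb and 21 Pcdhg genes. The rule used symbols and positions, and no measured value.

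Clustered protocadherins are cell adhesion proteins of the cadherin superfamily that are best known from neurons, where each cell expresses its own small choice of isoforms and so gains a surface identity. In the alpha and gamma clusters every member is a large variable first exon with its own promoter, spliced to constant exons at the far end of its cluster, while each beta gene is a single exon. The C-type members at the ends of the alpha and gamma clusters (Pcdhac1, Pcdhac2, Pcdhgc3, Pcdhgc4 and Pcdhgc5) are expressed in a more constant way in neurons, and promoter choice depends on CTCF, cohesin and DNA methylation. H3K27me3 is laid down by Polycomb repressive complex 2, is a mark of silenced chromatin, and often spreads over broad domains.

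The study compared bone marrow-derived macrophages of C57BL/6 mice with and without the ER stress kinase PERK, the product of Eif2ak3. Wild-type (WT) cells carried the floxed allele Eif2ak3 fl/fl, and knockout (KO) cells were Eif2ak3 fl/fl x LysMcre, in which the lysozyme M promoter drives Cre in myeloid cells; both genotypes thus carried the floxed allele. All cells were grown with M-CSF at 20 ng/ml for 7 days. They were then left untreated (M0), treated for 24 h with LPS at 20 ng/ml plus IFNg at 50 ng/ml (M1), or given IL-4 at 20 ng/ml for 24 h (M2). M0 was represented by 1 library of each genotype, and M1 and M2 by 2 libraries of each. Replicates are described as biological, but the animals behind them are not named, and the mark itself does not test the deletion.

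The 10 libraries held 12.6 to 20.9 megatags and 32320 to 39658 called regions, which covered 157 to 251 Mb. The M0 libraries had longer fragments (352 and 372 bp, against 178 to 190 bp in the others). They also covered the least, at 157 and 177 Mb, so that the M0 state and these library properties cannot be told apart. M0 is therefore set against M1 and M2 by its values only. It does enter the comparison of KO with WT, with 1 library of each genotype. Of all tags, 41.3% to 64.1% fell in called regions, with 61.0% and 61.3% in the KO M2 libraries against 41.3% and 56.5% in the WT M2 libraries. Replicate 1 of WT M1 and of WT M2 stood apart: 12.6% and 22.8% of their cover lay on the X chromosome, against 0.347% to 0.438% in the other 8 libraries. Differences in cluster cover and density, and counts of separated members, are given without them too. The labelled cell type was checked on 20 macrophage identity genes, of which 0 to 2 per library had at least 50% of the gene covered, while 6 to 11 of 18 markers of other blood cells and 0 of 15 housekeeping genes did. Among all protein-coding genes, 12.9% to 16.1% per library did. In bulk chromatin, fewer cells with the mark and less mark per cell cannot be told apart, and a stretch without a called region lay below the calling threshold, which does not show that the mark was absent.

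The alpha cluster spanned chr18:36930285-37188897 (259 kb), the beta cluster chr18:37264998-37521419 (256 kb) and the gamma cluster chr18:37661775-37841873 (180 kb). Gaps of 76.1 kb and 140 kb separated them, and the whole locus measured 912 kb. Alpha and gamma gene models are nested: each starts at its own variable exon and runs to the shared constant exons, with right ends within 1240 bp of each other in the alpha cluster and within 10 bp in the gamma cluster. The genes of a cluster therefore share most of their bases and are not independent. The median gene length was 205 kb for alpha, 3.42 kb for beta and 116 kb for gamma genes. The part that belongs to 1 member was taken as its first 2.5 kb, called the start window below, and cover is the percent of its bases inside called regions.

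None of the 57 genes had at least 50% of its body covered in any library, whereas 21.4% of all genes reached that level in some library and 8.74% in all 10. The highest cover of a member was 37.2%, for Pcdhga6 in replicate 1 of KO M2. The alpha genes reached at most 11.8% (Pcdhac2, which lies close to the end of the cluster) and the beta genes 28.2% (Pcdhb1), the latter in 1 library only. A region overlapped the body of all 14 alpha and all 21 gamma genes in at least 1 library, but of only 1 of 22 beta genes. The median cover of the members was above that of all genes, at 1.82% to 5.89% per library against 0%. The 14 alpha bodies all hold the region at Pcdhac2, and gene length was not matched. This median therefore does not describe separate members.

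Most regions called in the alpha and gamma clusters touched a start window. In the alpha cluster it was 33 of 34 regions over the 10 libraries, and these windows hold 13.5% of the span. In the gamma cluster it was 114 of 123 regions, for 29.2% of the span. A region can touch a window while centred outside it. The shares of the span are therefore not the touching shares expected by position alone, which were not computed. A site called in several libraries was counted once per library. Alpha regions had a median size of 1.57 kb and gamma regions of 2.53 kb, with the largest at 6.34 and 28.1 kb. The share of start windows covered at a given distance peaked 0.45 kb past the start for gamma genes in M0 (92.9%) and M2 (76.2%) and at 0.55 kb in M1 (54.8%). The alpha peaks were lower, at 50.0% in M0, 10.7% in M1 and 21.4% in M2, and the beta peak was 0%, 0% and 1.14%. Start windows of nearby genes can hold parts of the same region, so these shares describe the clusters and not separate measurements.

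**Figure D1:**
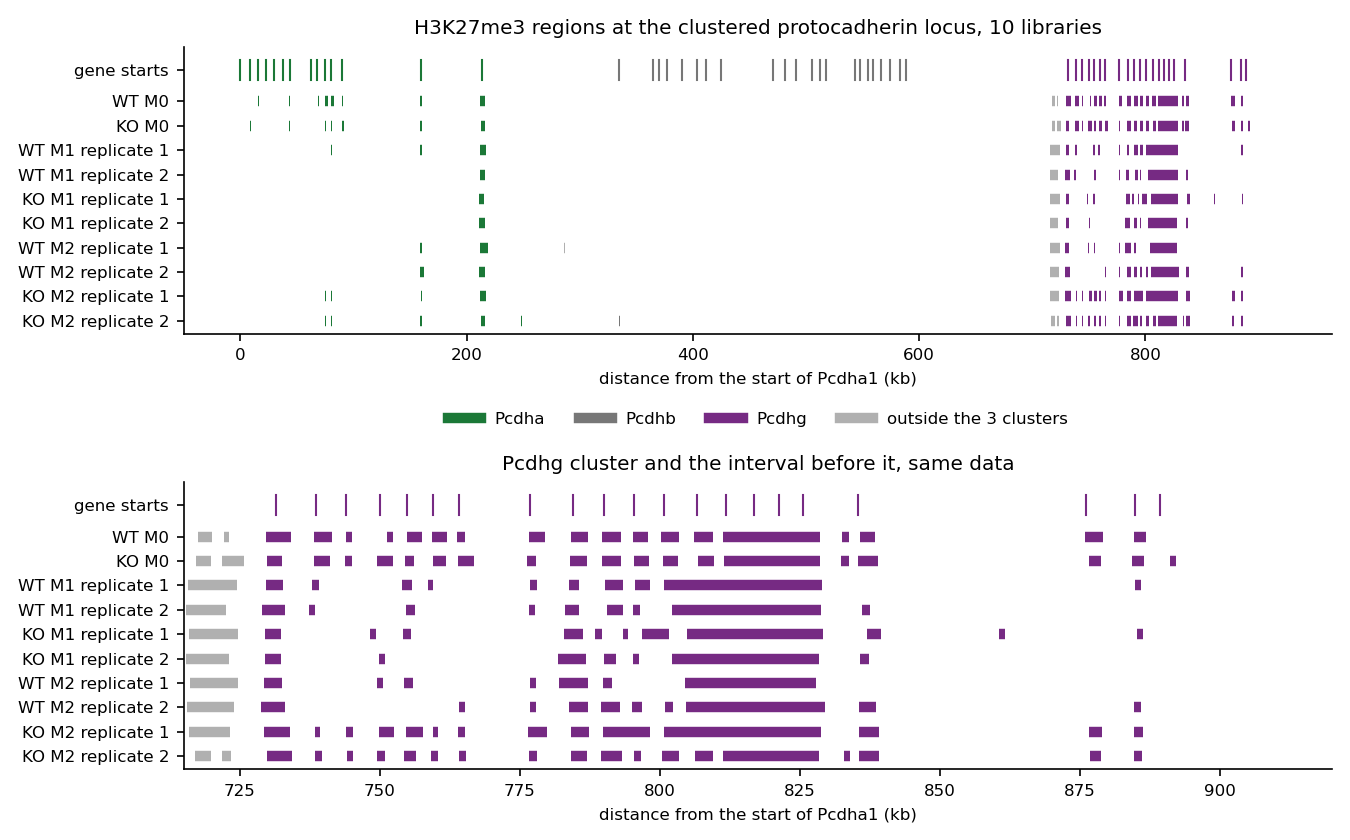
Called H3K27me3 regions along the clustered protocadherin locus in each of the 10 libraries, with distance in kb from the start of Pcdha1 on the horizontal axis, the library on the vertical axis and ticks for the gene starts above. Every library has a region at Pcdhac2 and a broad region over Pcdhgb6, Pcdhga10 and Pcdhgb7, the beta cluster is empty in all but replicate 2 of KO M2, and more short regions appear along the gamma cluster in M0 and KO M2.

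**Figure D2:**
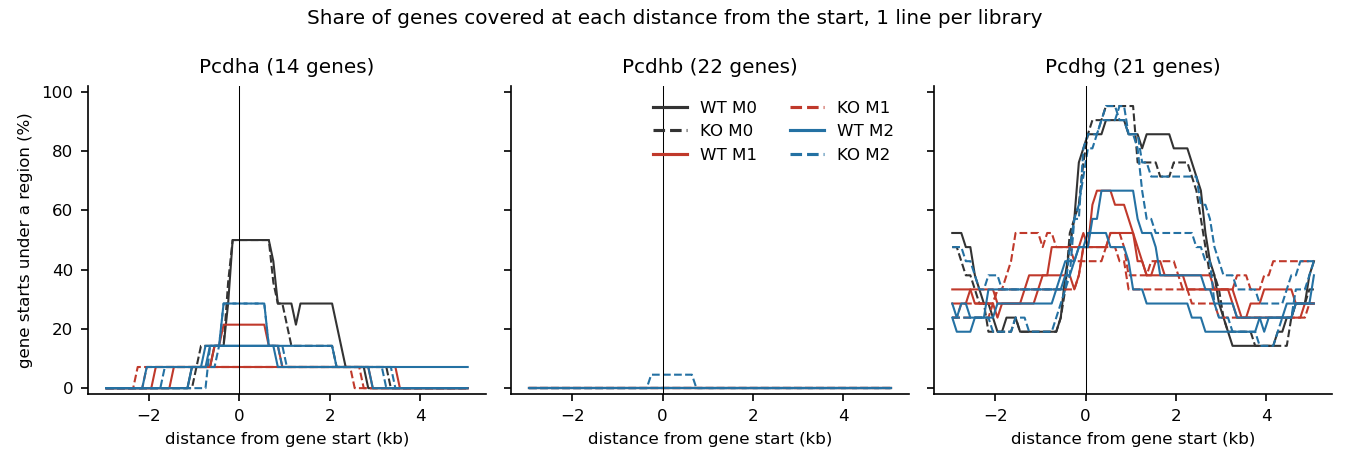
Percent of genes covered against distance from the gene start in kb, for alpha, beta and gamma genes, with 1 line per library. Averaged over the libraries of each stimulation state, gamma cover peaks about 0.5 kb past the start, at 92.9% in M0, 76.2% in M2 and 54.8% in M1. The beta average stays at or near 0%.

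A region touched the start window of 31 of the 57 members (54.4%) in at least 1 library, against 35.8% of 17549 genes with a known start, and of 8 members (14.0%) in all 10 libraries, against 19.9%. The 8 were Pcdhac2, Pcdhga1, Pcdhga7, Pcdhga9, Pcdhgb6, Pcdhga10, Pcdhgb7 and Pcdhga11; those among them outside the naming rule are listed because they make up this count. The number of starts touched per library was 28 in both M0 libraries, 17 and 14 in WT M1, 13 and 13 in KO M1, 13 and 16 in WT M2, and 24 and 25 in KO M2. M0 and KO M2 were thus high and the other 6 libraries lay between 13 and 17. Among all genes the share of starts touched moved little over the same libraries, from 24.7% to 29.1%, with 27.4% in both KO M2 libraries and 24.7% and 26.4% in WT M2.

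**Figure D3:**
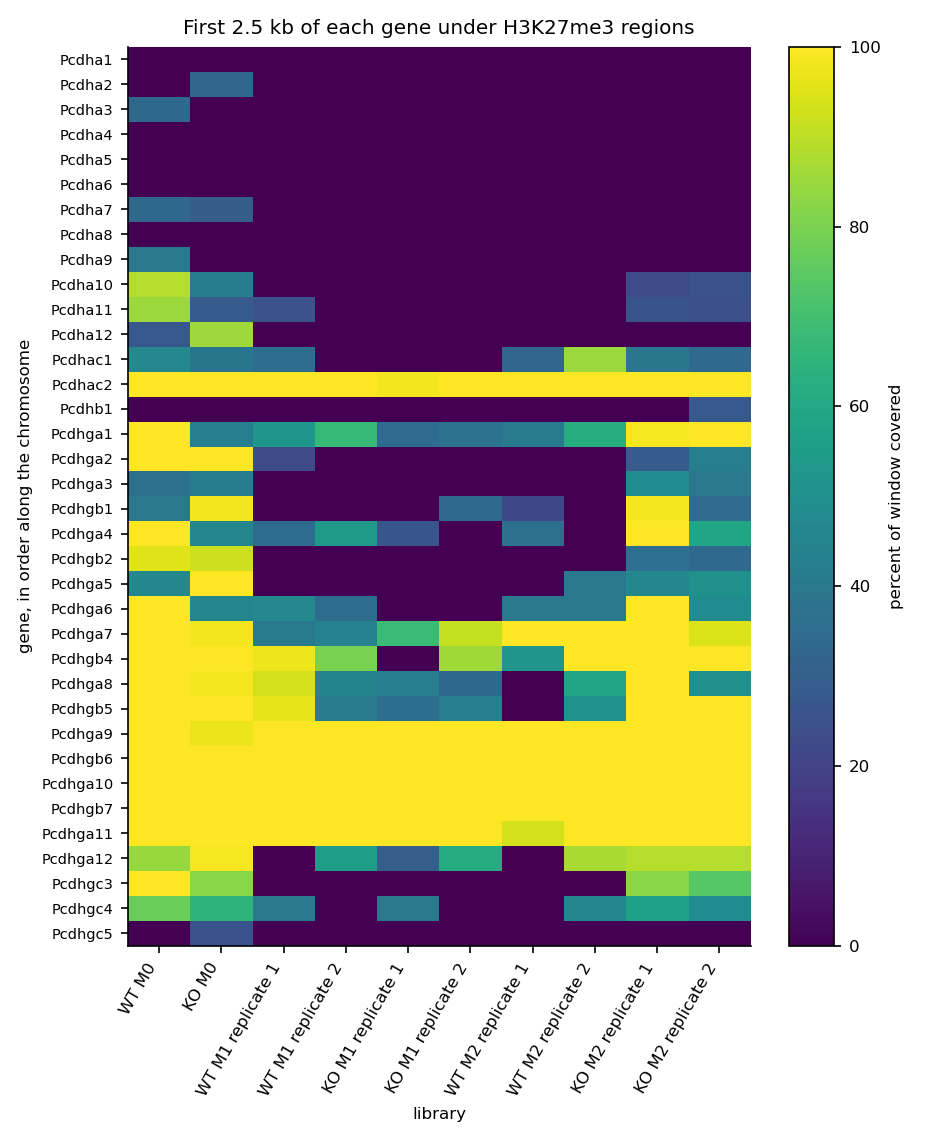
Percent of the first 2.5 kb covered by called regions for the 14 alpha genes, Pcdhb1 and the 21 gamma genes. Genes are in genome order on one axis and the 10 libraries are on the other. The C-type gene Pcdhac2 and the genes from Pcdhga9 to Pcdhga11 are at or near 100% in every library. Pcdhb1 is at 0% apart from replicate 2 of KO M2, and the other beta genes, at 0% throughout, are not drawn. Most other gamma genes have their highest cover in M0 and KO M2.

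In the alpha cluster the mark was concentrated on Pcdhac2 (chr18:37143678-37187663), the last of the alpha isoforms and a C-type. Its start window was covered to 100% in 9 libraries and to 98.4% in replicate 1 of KO M1 (99.8% ± 0.519, SD, n = 10). The region over it measured 4.78 ± 0.739 kb (SD, n = 10), with its left edge at -2.32 to -0.708 kb and its right edge at 2.46 to 5.19 kb relative to the start. On the scale of the deposited normalized tags (scaled to 10 megatags per library), its start window held 225 and 199 in WT and KO M0, 85.8 and 60.7 in WT M1, 62.3 and 60.9 in KO M1, 54.4 and 79.2 in WT M2, and 103 and 156 in KO M2. Both M0 and both KO M2 values lay above the other 6. The mean tag density over all regions of a library differed too, at 39.9 and 36.3 normalized tags per kb in M0, 18.7 to 20.1 in M1, 17.8 and 22.5 in WT M2, and 24.8 and 28.6 in KO M2, and its part in these values was not tested. Relative to that mean, the Pcdhac2 window stood at 2.26 and 2.20 in M0, 1.76 and 1.30 in WT M1, 1.24 and 1.22 in KO M1, 1.22 and 1.41 in WT M2, and 1.66 and 2.18 in KO M2. On this relative scale replicate 1 of WT M1 lay above replicate 1 of KO M2, while the WT M2 values stayed below those of KO M2. Among the 50% of regions with the highest score in each library, the Pcdhac2 start was touched in 7 of 10 libraries only. At equal covered length per library by score it was touched in 8. It was touched in all 10 with regions of at least 2 kb, and at equal covered length by tag density.

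Pcdhac1 (chr18:37090136-37187657), the other alpha C-type, varied more. Its start window cover was 47.0% and 39.0% in WT and KO M0, 35.9% and 0% in WT M1, 0% in both KO M1, 32.6% and 84.8% in WT M2, and 39.2% and 34.2% in KO M2 (31.3% ± 26.3, SD, n = 10). A region was thus called there in all 4 M2 libraries and in 1 of 4 M1 libraries. In normalized tags it held 34.6 at most in M2, well under Pcdhac2. Pcdha1 (chr18:36930285-37187657), the first gene of the cluster, had no region in its start window in any library, like Pcdha4, Pcdha5, Pcdha6 and Pcdha8, which share its lowest mean cover of 0%.

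The remaining alpha starts were touched almost only in M0 and KO M2. Pcdha10 was covered to 88.7% and 42.1% in WT and KO M0, to 22.7% and 25.2% in KO M2, and to 0% in the 4 M1 and both WT M2 libraries. Pcdha11 had 85.1% and 28.4% in M0, 26.0% and 24.6% in KO M2, 25.7% in replicate 1 of WT M1 and 0% in the other 5 libraries. Pcdha7 and Pcdha12 were touched in both M0 libraries only, with 33.2% and 29.7% for Pcdha7 and 27.7% and 85.2% for Pcdha12. Pcdha2, Pcdha3 and Pcdha9 were each touched in a single M0 library. These genes encode alternative alpha isoforms, and they are named here after their values were seen. With regions up to 10 kb apart joined, the upstream alpha regions formed a domain from Pcdha9 or Pcdha10 to Pcdha12 of 21.7 and 17.3 kb in M0, and one over Pcdha10 and Pcdha11 of 6.62 and 6.52 kb in KO M2.

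The beta cluster had no region in 9 libraries, and 1 region, over the start of Pcdhb1 (chr18:37264998-37267454), in replicate 2 of KO M2. That region covered 27.7% of the start window with 10.5 normalized tags, and 0.270% of the cluster span. The other 21 beta genes, including the last, Pcdhb22 (chr18:37518353-37521419), had 0% in all 10 libraries in body and in start window.

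In the gamma cluster a block from Pcdhga9 to Pcdhga11 was covered in every library when all called regions were used. The start windows of Pcdhgb6, Pcdhga10 and Pcdhgb7 were covered to 100% in all 10 libraries, the highest mean of any members, and so was the whole stretch from each of these starts to the next. Pcdhga9 had at least 97.0% and Pcdhga11 at least 93.2%. These 5 genes encode gamma isoforms of the A and B type, and in most libraries 1 region lay over all of them, so they share their values. That region measured 23.3 ± 4.50 kb (SD, n = 10; 17.1 to 28.1 kb) without joining. Its right edge lay at 37758101 to 37759703, that is 2.33 to 3.93 kb past the start of Pcdhga11, with an SD of 0.435 kb over the 10 libraries. Its left edge varied more, from 37730968 to 37741819 (SD 4.39 kb): it lay at Pcdhgb6 in both M0 libraries and replicate 2 of KO M2, and further left, from the start of Pcdhgb5 up to that of Pcdhga9, in the others. The region was 17.2 ± 0.154 kb long in M0 (SD, n = 2), 26.3 ± 1.59 kb in M1 (SD, n = 4) and 23.3 ± 4.62 kb in M2 (SD, n = 4). Both M0 libraries and replicate 2 of KO M2 thus had the shortest block, at 17.1 to 17.3 kb. They also had the largest numbers of separate gamma regions, at 18 and 19 in M0 and 18 in replicate 2 of KO M2. M1 had 7 to 11 and WT M2 had 7 and 10, while replicate 1 of KO M2 had 14 beside a block of 28.1 kb. The libraries with the shortest block were also the shallowest, at 12.6 (WT M0), 14.5 (KO M0) and 14.2 megatags (KO M2), against 17.6 to 20.9 in the others. The part of depth was not tested. The block was not among the regions of highest score everywhere. With the upper 50% of regions by score it was touched in 5 of 10 libraries, and in 0 of 4 M1 libraries. At equal covered length per library by score it was touched in 7. It was touched in all 10 with regions of at least 2 kb, and at equal covered length by tag density.

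The start window of Pcdhga10 (chr18:37747016-37841870), which lies inside the block, held 114 and 122 normalized tags in M0, 43.1 and 42.8 in WT M1, 48.1 and 46.1 in KO M1, 41.3 and 52.9 in WT M2, and 64.8 and 83.1 in KO M2. KO M2 lay above every M1 and WT M2 library, by values of 73.9 ± 12.9 against 47.1 ± 8.20 in WT M2 (SD, n = 2 each). Relative to the mean density of the library the same window ranged only from 0.883 to 1.35, with 1.04 and 1.16 in KO M2 and 0.929 and 0.942 in WT M2.

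Outside the block the gamma starts separated the libraries more clearly. The grouping into 12 genes before the block (Pcdhga1 to Pcdhgb5), 5 in it and 4 after it (Pcdhga12 to Pcdhgc5) was made after the values were seen. Mean cover of the 12 start windows before the block was 84.9% and 80.3% in M0, 40.5% and 30.5% in WT M1, 17.4% and 27.1% in KO M1, 24.2% and 37.7% in WT M2, and 79.8% and 62.9% in KO M2. All 12 were touched in both M0 and both KO M2 libraries, against 5 to 8 in the other 6. Over the 4 genes after the block, mean start cover was 65.5% and 67.8% in M0, 10.0% to 17.5% in M1, 0% and 33.2% in WT M2, and 57.1% and 52.9% in KO M2. KO M2 thus lay between M0 and the other stimulated libraries on both sides of the block, without overlap with M1 or WT M2.

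Pcdhga1 (chr18:37661775-37841870), the first gamma gene, was touched in every library, with 100% and 43.1% in WT and KO M0, 52.8% and 66.9% in WT M1, 35.1% and 37.7% in KO M1, 40.5% and 62.3% in WT M2, and 99.1% and 100% in KO M2. Pcdhga3, named after its values were seen, had 37.0% and 42.5% in M0, 48.1% and 40.0% in KO M2 and 0% in the other 6 libraries. Pcdhgb2, named likewise, had 95% and 92.3% in M0, 36.4% and 34.1% in KO M2 and 0% elsewhere. Both encode gamma isoforms whose promoters lie upstream of the block.

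Pcdhga12 (chr18:37765580-37841873) is the last gamma A isoform and the first gene after the block. Its start window cover was 84.7% and 99.0% in M0, 0% and 55.6% in WT M1, 30.1% and 61.5% in KO M1, 0% and 86.8% in WT M2, and 88.9% and 89.0% in KO M2. Called regions in its window held 53.7 and 49.1 normalized tags in KO M2, against 0 and 31.3 in WT M2. The 0 stands for a window without a called region, not for a window without tags. The WT values without a region came from both libraries with high X cover, and the replicate 2 value of WT M2 was close to those of KO M2.

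The gamma C-types differed from each other. Pcdhgc3, the first of them, was covered to 100% and 82.4% in M0 and to 82.2% and 73.9% in KO M2, and to 0% in the 4 M1 and both WT M2 libraries (33.8% ± 44.2, SD, n = 10). Pcdhgc4 had 77.4% and 64.9% in M0, 40.0% and 0% in WT M1, 40.0% and 0% in KO M1, 0% and 46.2% in WT M2, and 57.3% and 48.5% in KO M2 (37.4% ± 28.2, SD, n = 10). Pcdhgc5 (chr18:37819546-37841873), the last gene, was touched in KO M0 only, at 25%, and had the lowest mean of the gamma genes (2.50% ± 7.91, SD, n = 10). In normalized tags Pcdhgc3 held 62.5 and 46.6 in M0 and 40.7 and 30.1 in KO M2, and Pcdhgc4 held 51.8 and 43.4 in M0 and 29.8 and 25.7 in KO M2.

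**Figure D4:**
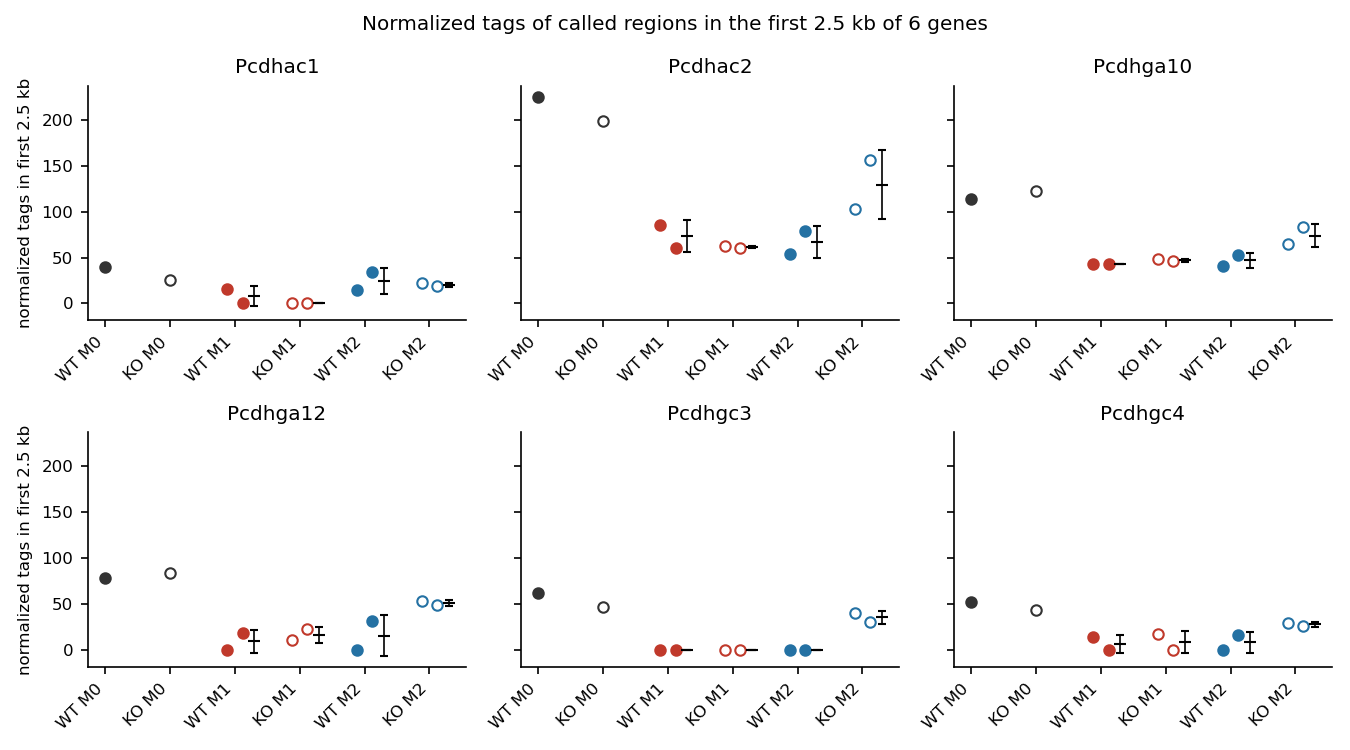
Normalized tags of called regions (scaled to 10 megatags) in the first 2.5 kb of Pcdhac1, Pcdhac2, Pcdhga10, Pcdhga12, Pcdhgc3 and Pcdhgc4. Each library is 1 point, grouped by genotype and stimulation, and a window without a called region is drawn at 0. Pcdhac2 carries the most tags, from 54.4 to 225. Pcdhgc3 has no called region, drawn as 0, in all M1 and WT M2 libraries, and 30.1 to 62.5 tags in M0 and KO M2.

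A rule chosen after these values were seen counted starts touched in both KO M2 libraries and in no WT M2 library. It held for 6 of 57 members (10.5%; Pcdha10, Pcdha11, Pcdhga2, Pcdhga3, Pcdhgb2 and Pcdhgc3), against 1.05% of 17549 genes, and the opposite rule held for 0 members, against 0.199%. Starts touched in both M0 libraries and in no M1 library were 7 of 57 (12.3%; Pcdha7, Pcdha10, Pcdha12, Pcdhga3, Pcdhgb2, Pcdhga5 and Pcdhgc3), against 1.99% of genes, and 0 members were touched in all M1 and no M0 library, against 0.633%. Starts that met both rules, touched in M0 and KO M2 and in no M1 or WT M2 library, were 4 of 57 (7.02%; Pcdha10, Pcdhga3, Pcdhgb2 and Pcdhgc3), against 0.302%. The members were picked out after their values were known and share regions, so these shares are a description without a test. The members behind these counts depended on how regions were chosen. Under 4 other choices the first count was 2 to 8 and shared 0 to 4 of the 6 members, and the M0 count was 4 to 13 and shared 2 to 7 of the 7. The count for both rules was 3 to 5 under 3 of these choices, and 0 with regions of at least 2 kb. Over the 4 choices the shares of all genes were 0.764% to 2.12% for the KO M2 rule, 0.878% to 3.90% for the M0 rule and 0.137% to 0.313% for both.

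The comparison of M2 with M1 asks how the IL-4 and LPS with IFNg states differ. Cover of the alpha span was 3.03% and 1.69% in WT M1, 1.77% and 1.93% in KO M1, 3.07% and 3.02% in WT M2, and 3.33% and 3.24% in KO M2; replicate 1 of WT M1 overlapped the M2 range. The M2 mean was 3.16% ± 0.145 and the M1 mean 2.11% ± 0.628 (SD, n = 4 each), a difference of 1.06 points with p = 0.0571 by an exact two-sided permutation test over all 8 libraries and 0.357 after adjustment over 10 cluster comparisons. Without replicate 1 of WT M1 the difference was 1.37 points, with p = 0.0286 by the exact permutation test before adjustment, the smallest that this test can give. Gamma cover was 24.2% and 22.1% in WT M1, 23.5% and 21.1% in KO M1, 19.2% and 23.5% in WT M2, and 35.0% and 28.5% in KO M2. Its M2 mean of 26.5% ± 6.79 exceeded the M1 mean of 22.7% ± 1.40 by 3.80 points (SD, n = 4 each; exact permutation p = 0.40, adjusted 0.571), less than the spread within M2. Beta cover differed by 0.0676 points, with p = 1 by the exact permutation test. In M0 the alpha and gamma cover was 5.65% and 33.2% for WT, and 4.95% and 32.6% for KO.

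Tag density, the normalized tags per kb of called region inside a cluster, was 38.7 and 40.8 for alpha in M0, 28.3 and 24.3 in WT M1, 25.3 and 24.4 in KO M1, 20.9 and 26.1 in WT M2, and 32 and 38.2 in KO M2. For gamma it was 33.8 and 33.4 in M0, 16.2 and 16.2 in WT M1, 16.9 and 17.3 in KO M1, 16 and 18.9 in WT M2, and 21.5 and 25.7 in KO M2. M2 exceeded M1 by 3.75 for alpha (29.3 ± 7.46 against 25.6 ± 1.86, SD, n = 4 each; exact permutation p = 0.371) and by 3.92 for gamma (20.6 ± 4.13 against 16.6 ± 0.531; exact permutation p = 0.143). Divided by the mean density of the library, alpha was 1.16 to 1.33 in M2 and 1.21 to 1.45 in M1, and the difference had the opposite sign (-0.0663). Gamma then ranged only from 0.83 to 0.92 over all 10 libraries. The gamma regions were thus less dense than this mean, which is all region tags over all region length, in every library. The alpha regions, largely that over Pcdhac2, were denser than it in 9 of 10. The median density of single regions was lower than the mean, at 13.6 to 19.4 normalized tags per kb. Gamma lay above that median in every library.

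**Figure D5:**
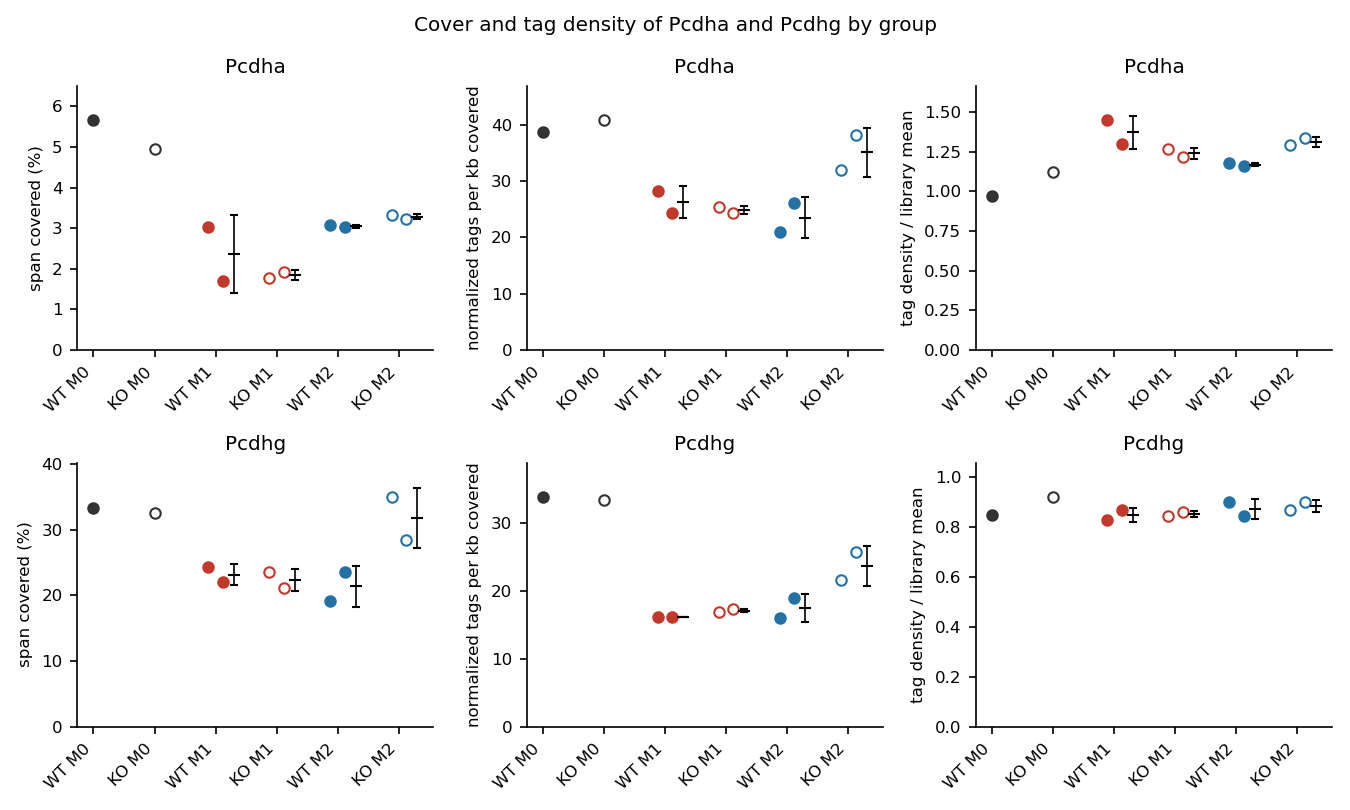
Percent of the cluster span covered and normalized tags per kb of called region for the alpha and gamma clusters, with 1 point per library, by genotype and stimulation. Gamma cover is 28.5% and 35.0% in KO M2 and 19.2% and 23.5% in WT M2, while in M1 all 4 libraries lie between 21.1% and 24.2%.

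The comparison of KO with WT asks whether loss of PERK moves the mark, with labels exchanged within each stimulation state. Each difference is the mean over the states, M0 with its 1 library of each genotype included. Gamma cover was higher in KO by 2.97 points (exact permutation p = 0.278, adjusted 0.556), and alpha cover differed by -0.326 points (p = 0.50 by the exact permutation test, adjusted 0.625). Beta cover differed by 0.0450 points, from the 1 region named above. Tag density was higher in KO by 4.07 for alpha and by 2.20 for gamma, each with an exact permutation p of 0.111. No adjusted value of the 10 comparisons fell under 0.357. Without M0 the cover differences were -0.137 points for alpha and 4.78 points for gamma. The density differences were then 5.09 for alpha and 3.53 for gamma. The smallest p these designs allow is 0.0286 for M2 against M1 and 0.0278 for KO against WT.

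Within M2, the KO libraries had a gamma cover of 31.7% ± 4.59 and the WT libraries one of 21.3% ± 3.07 (SD, n = 2 each), a difference of 10.4 points without overlap. Without replicate 1 of WT M2, the library of high X cover, the difference from the remaining WT value of 23.5% was 8.21 points. The smallest exact p for 2 against 2 libraries is 0.333. The groups did not overlap under 4 other region choices either, with differences of 7.65 to 14.9 points; the 14.9 points came with the upper 50% of regions by score, where replicate 2 of WT M2 had no region over the block. Alpha cover within M2 was 3.28% ± 0.0675 in KO and 3.05% ± 0.0396 in WT, but under the 4 other choices the difference had the opposite sign, at -1.52 to -0.182 points. Per 100 Mb covered in the library, gamma cover was 14.2% and 13.3% in KO M2 and 8.26% and 9.36% in WT M2. The share of tags in regions, the mean density and the X cover also differed between these libraries, as given above, and their part in the result was not tested. For gamma, KO differed from WT by -0.650 points in M0 and by -0.821 points in M1, where the sign depended on the regions used, with 0.349 points for regions of at least 2 kb and 6.61 points at equal covered length by score. The difference between the KO effect in M2 and in M1 was 11.2 points, with an exact permutation p of 0.111 (the smallest possible is 0.0556), so a different effect in the 2 states was not shown; under the 4 other choices it was 3.05 to 15.2 points, the lowest at equal covered length by score. For alpha cover it was 0.752 points (exact permutation p = 0.278), and -2.04 to 0.138 points under the other choices.

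Gene by gene, the count asked whether all libraries of one group lay above all of the other. For KO against WT this was asked within each state separately, with the same direction in every state. M0 held 1 library of each genotype. Over the body, 0 of 35 members with any cover were separated between M2 and M1, against 0.864% of 8795 genes higher in M2 and 1.58% higher in M1. In these genes 215 reached p under 0.05 by the exact permutation test, and 0% passed after Benjamini-Hochberg adjustment. In the start window, 1 of 25 members with any cover in these libraries was separated: Pcdhga7 (chr18:37714834-37841873), a gamma A isoform upstream of the block, was higher in M2, against 0.579% of 5872 genes higher in M2 and 0.596% higher in M1. Its start cover was 100% and 98.1% in M0, 40.3% and 44.4% in WT M1, 68.3% and 91.3% in KO M1, 100% in both WT M2, and 100% and 94.6% in KO M2, a difference of 37.6 points (98.7% ± 2.68 against 61.1% ± 23.6, SD, n = 4 each; exact permutation p = 0.0286, adjusted 1). Of all start windows, 69 reached p under 0.05 by the exact permutation test and 0% passed the adjustment.

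Between KO and WT, 1 of 36 members was separated over the body: Pcdhga12, higher in KO, against 2.71% of 9352 genes higher in KO and 0.631% higher in WT. Its body cover was 10.5% and 12% in WT and KO M0, 1.31% and 1.82% in WT M1, 5.75% and 2.01% in KO M1, 0% and 5.68% in WT M2, and 9.65% and 8.90% in KO M2, a difference of 3.41 points (exact permutation p = 0.0278). Of the 9352 genes, 312 reached p under 0.05 by the exact permutation test and 0% passed the adjustment, with a smallest adjusted p of 0.828. In the start window 0 of 31 members were separated, against 0.636% of 6286 genes higher in KO and 0.191% higher in WT. There 52 genes reached p under 0.05 by the exact permutation test, and 0% passed the adjustment. The separation of Pcdhga12 was lost in all 5 other ways of choosing regions or windows listed in the closing section.

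These counts changed when single libraries were left out. The 14 alpha bodies all contain the Pcdhac2 region, and the gamma bodies up to Pcdhga11 contain all or part of the block, so members of a cluster do not count separately. Without replicate 1 of WT M1, all 14 alpha bodies were higher in M2 than in M1 (2.86% of genes were). Without replicate 1 of WT M2, 14 gamma bodies were (11.9% of genes), and without replicate 2 of WT M2, 10 alpha bodies were (1.18%). Without both WT libraries of high X cover, 29 of 35 members were higher in M2 and 16.2% of all genes were. For KO against WT, 4 members were higher in KO without replicate 1 of WT M1 (4.78% of genes), 6 without replicate 2 of WT M1 (5.19%), 10 without replicate 2 of KO M1 (3.91%) and 4 without both libraries of high X cover (5.27%).

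In the authors' deposited table of M2 regions enriched in KO, 2 of 1049 regions lay in the gamma cluster and none in the alpha or beta cluster. The first, chr18:37767921-37768321, lay 2.34 kb past the start of Pcdhga12, with a log2 fold of 1.46, p = 0.0024 and FDR 0.162 in the authors' deposited table. The second, chr18:37808319-37808719, lay 1.91 kb past the start of Pcdhgc3, with 1.44, p = 0.00494 and FDR 0.192 in the authors' deposited table. The median log2 fold of that deposited table was 1.49. The authors' deposited tables of M2 regions enriched in WT (185), and of M1 regions enriched in KO (93) or WT (49), held 0 regions in the 3 clusters. Called regions covered the first site in both M0, both KO M2, replicate 1 of KO M1 and replicate 2 of WT M2, and the second in both M0 and both KO M2 libraries only.

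The genes around and between the clusters were free of called regions. Hars2, a mitochondrial histidyl-tRNA synthetase, and Zmat2 before the alpha cluster, the mitochondrial carrier gene Slc25a2 and the TFIID subunit gene Taf7 between beta and gamma, and the formin gene Diaph1 and the histone deacetylase gene Hdac3 after gamma had 0% cover in all 10 libraries. The interval between Taf7 and Pcdhga1 held 3.5 to 8.89 kb of called region in every library. The fusion models Gm37013, Gm38666 and Gm38667, which span several protocadherins and are no members, were 5.9% to 9.4% covered.

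Protocadherins outside the clusters are single genes with their own promoters. Of 12 such genes, 3 to 4 per library had at least 50% of the body covered, and 3 did in all 10: Pcdh8, Pcdh1 (chr18:38185914-38212048, at least 99.9%) and Pcdh12 (84.8% to 100%), the last a vascular endothelial protocadherin. Pcdh1 and Pcdh12 lie on chromosome 18 as well, and were covered over most or all of their body where no clustered member passed 37.2%. Gene length was not matched in this comparison. Low body cover was not particular to the clusters, since 8 of the 12 genes reached 50% in no library. Their highest cover ran from 0% (Pcdh20 and Pcdh11x) to 16.1% (Pcdh18). Pcdh19, on the X chromosome, reached 50% in 2 libraries only. Of 28 classical and desmosomal cadherins, 2 to 4 per library were covered, with Cdh15 and Cdh22 in all 10. Among all protein-coding genes, 12.9% to 16.1% per library reached 50% of the body, and 8.74% did in all 10.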

How the data were processed

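Regions of H3K27me3 ChIP-seq were called by the authors with HOMER (region mode, size 1000, minimum distance 2500, FDR 0.001, tags normalized to 10 megatags, per the file headers), 1 file per library. The submitters' processing notes name HOMER 4.8, DiffBind 2.0.2, deepTools 3.5.1, Bowtie2 2.4.2 and SAMtools 1.10. The tag signal, the region score and the fold ratio of each region, with their p-value, are the authors' own as deposited. The log2 fold and p-value of the enriched region tables are the authors' deposited values, and the sources used here do not say which libraries and model they rest on.

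Regions of a library were merged. Cover is the percent of bases inside them, and tags of a region were spread evenly over its length. Gene positions came from RefSeq GRCm38.p6 (mm10), with 21887 protein-coding genes; start windows could be set for 17549 genes. Of the 3 clusters the start was taken at the left end, where nested models differ. Tests were exact two-sided permutation tests over libraries (M2 against M1 over all 8 libraries; KO against WT within each state), adjusted by the Benjamini-Hochberg method, with scripts in Python 3.11.15, numpy 2.4.6, pandas 2.3.3 and matplotlib 3.10.9, checked on simulated data. A gene counted as separated between M2 and M1 when the 2 groups did not overlap. Between KO and WT it counted when they did not overlap within any state, in the same direction throughout. With 2 to 4 libraries per group, and 1 per genotype in M0, p-values measure only the spread between these libraries. Counting error was not available beyond the totals given.

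The members and lists were chosen with earlier results of these data known. Genes named by rule were the first and last of each cluster, those of highest and lowest mean start cover, the C-types, Pcdhb1, separated members and the genes around the clusters; others are marked. Replicate numbers were checked for pairing by the correlation of deviations from group means over genes (0.137 for WT M1 and M2, 0.0354 for KO M1 and M2, -0.0456 for WT and KO M1, -0.083 for M2), which does not show that they pair the samples. No sequence of these genes is printed. The list of regulators of protocadherin choice is not reported here.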

Additional observations from a re-analysis of the deposited data

Results flagged for a closer look

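Cover of the beta cluster in replicate 2 of KO M2 was 0.270% of its span, against 0% in the other 3 M2 libraries. It is listed because its distance from the others is the whole range of the 4 values, which any single value above 0 would give here, so that no chance rate applies. The value rests on the 1 region over Pcdhb1.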

How the results depend on the processing

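Cluster values were recomputed with the 50% of regions of highest score, with regions of at least 2 kb, with equal numbers of covered bases per library by score or (chosen after seeing the data) by density, and with gaps up to 5 kb joined. Over all M1 and M2 libraries, or all states for KO minus WT, the alpha and gamma differences kept their sign in the fits that gave a value. The beta differences became 0 in 4 of these fits. The exceptions were differences within a single state, given in the report, and the alpha density difference between M2 and M1, divided by the library mean (chosen after seeing the data), which became -0.0663. Alpha density had no value with the upper 50% of regions or at equal length by score, where replicate 2 of WT M1 had no alpha region. Density was not recomputed with gaps joined. Without both libraries of high X cover, M2 minus M1 was 1.40 for alpha cover, 6.75 for gamma cover, 7.45 for alpha density and 5.29 for gamma density. The exact permutation p of these was 0.2 for gamma cover and 0.1, the smallest possible here, for the others. In the same order, KO minus WT was -0.0923, 2.61, 3.87 and 1.71. Of the tested differences, 3 passed p 0.05 where the reported one did not: alpha cover M2 minus M1 without replicate 1 of WT M1 (1.37), and gamma density M2 minus M1 with the upper 50% of regions (6.33) and without replicate 1 of WT M2 (5.44). Members separated between M1 and M2 by the body were 1 with the upper 50% of regions, 1 by the start window and 29 without both libraries of high X cover. Members separated between WT and KO were 0 with the upper 50% of regions, at least 2 kb, equal length by score, equal length by density and the start window, and 4 without both libraries. At least 25% cover gave a median of 10 members per library (17.5%, against 19.6% of all genes) where 50% gave 0. The longest gamma domain averaged 23.3 kb without joining and 107 kb with gaps up to 25 kb joined, against 61.9 kb at 10 kb. Starts touched in KO M2 and not WT M2 were 2 with regions of at least 2 kb (0.764% of genes), and starts touched in M0 and not M1 were 12 with the upper 50% of regions (1.43% of genes), 4 at 2 kb (0.878%) and 13 at equal length by density (3.90%).

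Leaving out 1 library at a time, alpha cover moved from 0.921 to 1.37 for M2 minus M1 and from -0.550 to -0.102 for KO minus WT, and gamma cover from 0.986 to 6.25 and from 1.89 to 4.78. Beta cover moved from 0 to 0.0901 in both. Alpha density moved from 0.788 to 6.55 and from 3.05 to 5.10, and gamma density from 2.19 to 5.44 and from 1.5 to 3.53. Separated members moved from 0 to 14 between M1 and M2 and from 1 to 10 between WT and KO, starts touched in KO M2 alone from 6 to 11, and in M0 alone from 7 to 10. With the replicate number as a block, too few arrangements remained for any p under 0.05, so this fit could not change a call. For M2 minus M1 its exact permutation p was 0.375 for gamma cover (3.80) and 0.125, the smallest possible, for alpha cover (1.06). The depth of 12.6 to 20.9 megatags sets which stretches pass the calling threshold.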
